A study of Mus musculus with 6 samples.

Results

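The miR-181 family was followed in small RNA libraries from mouse embryonic fibroblasts (MEFs), connective tissue cells cultured from embryos, with and without the gene Fbxw7. The family was taken by name as 6 hairpin genes at 3 loci, and 5 of them had a row among the 1155 miRNA rows of the count table. These were Mir181a-1 on chromosome 1, Mir181a-2 and Mir181b-2 on chromosome 2, and Mir181c and Mir181d on chromosome 8. Mir181b-1, the partner of Mir181a-1 on chromosome 1, was not analysed here. There were 3 libraries labelled Fbxw7 KO and 3 labelled WT, all from MEFs grown in DMEM with fetal bovine serum and non-essential amino acids. The labels give neither the knockout allele nor how it was made, and they name no embryo or culture of origin. A p-value here thus reflects the variation between libraries, and that variation may be purely technical. FBXW7 is the part of a ubiquitin ligase that picks the proteins to be degraded, among them Myc and Notch, and its transcript was not analysed here.

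A miRNA hairpin is cut by Drosha and Dicer into a duplex, and one of its arms, named 5p or 3p, is kept in an Argonaute protein. There it finds messenger RNAs mainly through its seed, bases 2 to 8. In the mouse, miR-181a is best known from lymphocytes, where it sets how strongly developing T cells respond to their antigen receptor. Paralogous hairpins are made from separate transcripts, while the hairpins of 1 locus are thought to be cut from a shared one.

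The mature sequences show why the hairpins can be told apart only in part. All 6 hairpins have mature entries in RefSeq (GRCm38.p6), with 4 distinct 5p and 6 distinct 3p sequences. The 4 distinct 5p sequences are shown first, since they carry the family's seed, with the seed in capitals.
miR-181a-5p: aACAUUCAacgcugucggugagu
miR-181b-5p: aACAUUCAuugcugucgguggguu
miR-181c-5p: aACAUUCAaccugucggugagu
miR-181d-5p: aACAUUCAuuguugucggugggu
All 4 share 1 seed, which no other mature mouse miRNA in the RefSeq table has. Counting positions from 1 at the 5′ end, miR-181b-5p and miR-181d-5p differ by C12U over 23 bases. miR-181a-5p and miR-181b-5p differ by A9U, C10U and A21G, and miR-181c-5p is miR-181a-5p without 1 base, at position 11. miR-181a-5p is the same in Mir181a-1 and Mir181a-2, and miR-181b-5p the same in Mir181b-1 and Mir181b-2. The 3p arms of the paralogs differ, as the following 3 show.
miR-181a-1-3p: aCCAUCGAccguugauuguacc
miR-181a-2-3p: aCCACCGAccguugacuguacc
miR-181c-3p: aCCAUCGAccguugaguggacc
The Mir181a-1 and Mir181c 3p arms share their seed although the genes lie on different chromosomes, and they differ by U16G and U19G. The Mir181a-1 and Mir181a-2 3p arms differ by U5C, inside the seed, and U16C.

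The deposited counts sum both arms of a hairpin, and the recorded counting command does not switch on reads with several alignments. A read of the whole miR-181a-5p or miR-181b-5p has 2 possible hairpins, so such reads could be left out of the rows of Mir181a-1, Mir181a-2 and Mir181b-2. How many were left out was not tested. The levels and fold changes of these 3 rows, and the sums and ratios that use them, are uncertain for this reason. The 5p and 3p sequences of Mir181c and Mir181d each belong to 1 hairpin in the RefSeq mature table. No other row of the count table overlapped a member. A shared mature sequence of this kind is found in 35 of the 255 tested rows with RefSeq mature entries (13.7%).

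Positions were read from the count table (mm10), and all 5 equal the GENCODE M21 entries. Mir181a-1 lies on chromosome 1, 137966455 to 137966541, plus strand, in an intron of the non-coding transcript gene Gm4258. It also overlaps part of an exon of the lincRNA gene A430106G13Rik on the same strand, and it lies opposite an intron of the lincRNA gene Gm26936. Mir181a-2 (chromosome 2, 38852735 to 38852810, plus strand) and Mir181b-2 (38853830 to 38853918, plus strand) are 1019 bases apart, on the strand opposite to an intron of Nr6a1, which encodes an orphan nuclear receptor. Mir181b-2 also lies opposite an exon of the unclassified gene Gm44144. Mir181c (chromosome 8, 84178873 to 84178961, minus strand) and Mir181d (84178716 to 84178787, minus strand) are only 85 bases apart, in an intron of Nanos3 on the same strand. Nanos3 encodes an RNA-binding protein of germ cells.

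The libraries held 2932439 to 5019700 counts. Fbxw7 KO replicate 3 stood apart from the other Fbxw7 KO libraries on the second principal component of all tested rows, which held 17.5% of the variance. The fibroblast and mesenchymal list held 57.95% to 61.8% of counts in Fbxw7 KO libraries and 56.9% to 58.3% in WT libraries, with 12 of its 14 rows tested.

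Of the 5 rows counted, Mir181d held the largest part of the signal in both genotypes, with the limit that reads of miR-181a-5p and miR-181b-5p may be missing from the rows of Mir181a-1, Mir181a-2 and Mir181b-2. Levels between hairpins are compared as FPKM, the authors' values per hairpin length and scaled library size. Mir181d had 7111 ± 208 FPKM in Fbxw7 KO and 8709 ± 286 FPKM in WT (SD, n = 3 each). Averaged over all 6 libraries it ranked 72nd of the 283 tested rows. Mir181a-1 came next, with 2684 ± 846 FPKM in Fbxw7 KO and 1935 ± 263 FPKM in WT. Mir181c had 1789 ± 180 FPKM in Fbxw7 KO and 1619 ± 174 FPKM in WT, and Mir181a-2 had 1400.2 ± 45.0 FPKM in Fbxw7 KO and 1343 ± 101 FPKM in WT. Mir181b-2 was the lowest member at 107.3 ± 16.1 FPKM in Fbxw7 KO and 88.1 ± 11.8 FPKM in WT, 13.1 and 15.2 times below its neighbour Mir181a-2. In counts, not divided by length, Mir181a-2 held 9.43 to 13.2 times Mir181b-2 in Fbxw7 KO libraries and 10.9 to 15.9 times in WT libraries. The order of the 5 levels was the same in every library. In WT the ranges of Mir181a-1 and Mir181c, and those of Mir181c and Mir181a-2, overlapped between libraries, although each WT library held the same order. Differences between these neighbours were not tested. In Fbxw7 KO the ranges of neighbouring members did not overlap.

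**Figure D1:**
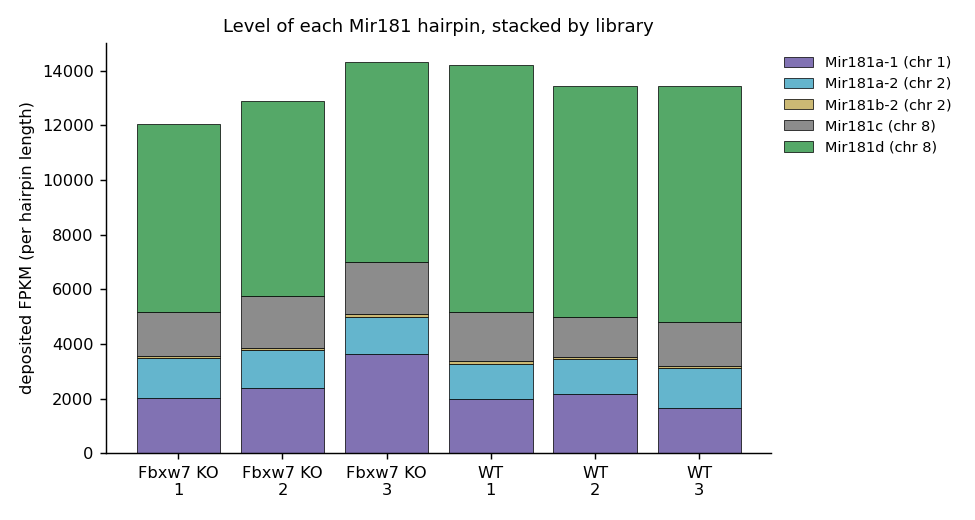
Deposited FPKM (y axis) of the 5 measured Mir181 hairpins, stacked for each of the 3 Fbxw7 KO and 3 WT libraries. The Mir181d block spans 6891 to 7306 FPKM in Fbxw7 KO and 8468 to 9025 FPKM in WT, and the whole bar spans 12055 to 14315 FPKM in Fbxw7 KO and 13430 to 14201 FPKM in WT.

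Loss of Fbxw7 went with no change in the measured rows of the family that passed the test across all rows. Reads of miR-181a-5p and miR-181b-5p may be missing from these rows. Of the 5 tested members 0 had an adjusted p under 0.05, against 25.4% of all 283 tested rows, with 15.2% higher and 10.2% lower in Fbxw7 KO. The test was edgeR's quasi-likelihood test with Benjamini-Hochberg adjustment over all tested rows. In 1 of the 5, Mir181d, all Fbxw7 KO libraries lay on one side of all WT libraries, without overlap, which held for 43.8% of all tested rows in either direction and for 20.1% in the lower direction. The log2 fold changes, Fbxw7 KO over WT, lay between −0.32 and 0.45 with a median of 0.12, beside a median of 0.05 over all tested rows. Across all rows 101 had an unadjusted edgeR p under 0.05, and among the members this was Mir181d alone.

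Mir181d had the lowest log2 fold change of the family. It had 487.1, 519.0 and 517.7 CPM, counts scaled to library size with TMM factors, in the Fbxw7 KO libraries, against 636.2, 636.1 and 623.6 CPM in the WT libraries. All 3 Fbxw7 KO values lay below all 3 WT values, and the gap was wider than the spread in either genotype. In bulk libraries fewer cells that make a miRNA and less of it per cell cannot be told apart. The mean was 507.9 ± 18.1 CPM in Fbxw7 KO and 632.0 ± 7.24 CPM in WT (SD, n = 3 each), a difference of −19.6% of the WT mean. The log2 fold change was −0.32 (SE 0.112, 95% interval −0.57 to −0.06), with an edgeR p of 0.0203 and an adjusted p of 0.0737. By p it ranked 77th of 283 tested rows, just behind the 72 that passed. The call depended on the scaling. With DESeq2 size factors the edgeR adjusted p was 0.0472, with TMM factors from rows outside chromosome 12 it was 0.0253, and the DESeq2 test gave 0.0498. TMM factors from rows outside chromosome 12 moved the median of all rows from 0.05 to −0.06, and the log2 fold change of Mir181d to −0.44. Over all 16 alternatives the adjusted p of Mir181d ranged from 0.0253 to 0.363, and its log2 fold change stayed between −0.44 and −0.28.

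Mir181c, 85 bases from Mir181d, was not lower in Fbxw7 KO. It had 138.2, 170.2 and 165.7 CPM in Fbxw7 KO libraries, against 156.7, 134.8 and 143.5 CPM in WT libraries. The genotypes overlapped, with the highest values in Fbxw7 KO replicates 2 and 3. The log2 fold change was 0.12 (SE 0.153, 95% interval −0.22 to 0.47, edgeR adjusted p = 0.593). Leaving out Fbxw7 KO replicate 2 gave 0.039, leaving out replicate 1 of that genotype gave 0.21, and it was 0.0057 with TMM factors from rows outside chromosome 12.

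In these libraries Mir181c made up a larger part of the counts of the chromosome 8 locus in Fbxw7 KO than in WT. The test of this difference could not reach 0.05 with 3 against 3 libraries. Mir181c made up 22.1%, 24.7% and 24.3% of the locus's counts in Fbxw7 KO replicates 1 to 3. Exact binomial 95% intervals were 20.3 to 24.0%, 22.8 to 26.6% and 22.6 to 25.9%, and they cover counting error only. In WT replicates 1 to 3 Mir181c made up 19.8% (18.5 to 21.04%), 17.5% (16.2 to 18.8%) and 18.7% (17.3 to 20.2%). The highest WT library lay below the lowest Fbxw7 KO library, although the intervals of Fbxw7 KO replicate 1 and WT replicate 1 overlapped. Expressed as the log2 ratio of Mir181c to Mir181d, the mean was −1.69 ± 0.112 in Fbxw7 KO and −2.13 ± 0.109 in WT (SD, n = 3 each), a difference of 0.44. The exact 2-sided permutation p was 0.1, the smallest that 3 against 3 libraries can give, and 0.5 after adjustment over the 5 ratios compared. A ratio within a library does not change with the scaling of libraries. Leaving out each library in turn gave differences of 0.38 to 0.50. Reads that match both hairpins with a mismatch, and the arm each read came from, were not tested.

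Mir181a-1, the measured hairpin of the chromosome 1 locus, had the highest log2 fold change of the family and the widest spread. It had 173.2, 209.6 and 311.5 CPM in Fbxw7 KO libraries, against 169.3, 196.8 and 144.01 CPM in WT libraries. Fbxw7 KO replicate 3 was far above the rest, while replicates 1 and 2 lay within or just above the WT range. The log2 fold change was 0.45 (SE 0.230, 95% interval −0.08 to 0.97, edgeR adjusted p = 0.195). Without Fbxw7 KO replicate 3 it was 0.18 (adjusted p = 0.494), and without Fbxw7 KO replicate 1 it was 0.61 (adjusted p = 0.111).

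Neither hairpin of the chromosome 2 locus passed the test. Mir181a-2 had 107.9, 107.3 and 101.4 CPM in Fbxw7 KO libraries and 95.9, 101.5 and 111.3 CPM in WT libraries. These ranges overlapped, and the log2 fold change was 0.037 (SE 0.145, 95% interval −0.29 to 0.37, edgeR adjusted p = 0.883). Its sign changed to −0.083 with TMM factors from rows outside chromosome 12 and to −0.011 without WT replicate 1. Mir181b-2 had 30, 24 and 42 counts in Fbxw7 KO libraries, against 44, 33 and 27 counts in WT libraries, the fewest of any member. In CPM these were 9.46, 8.15 and 10.8 in Fbxw7 KO and 8.83, 7.84 and 7.02 in WT. The log2 fold change was 0.26 (SE 0.223, 95% interval −0.24 to 0.77, edgeR adjusted p = 0.430), and 0.16 without Fbxw7 KO replicate 3 (adjusted p = 0.704).

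**Figure D2:**
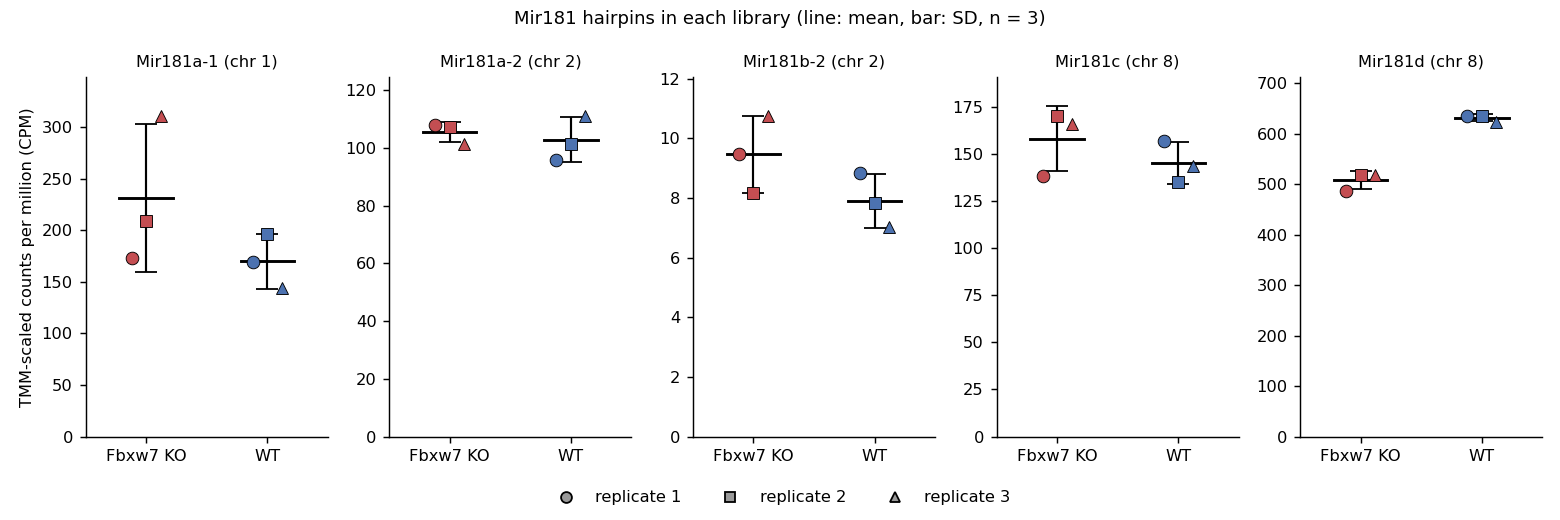
TMM-scaled CPM (y axis, from 0) of each measured Mir181 hairpin, with 1 panel a hairpin and 1 point a library, Fbxw7 KO left and WT right; lines are means and bars SD (n = 3). The groups are apart only for Mir181d, at 487.1 to 519.0 CPM in Fbxw7 KO and 623.6 to 636.2 CPM in WT, and Fbxw7 KO replicate 3 leads Mir181a-1 at 311.5 CPM.

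**Figure D3:**
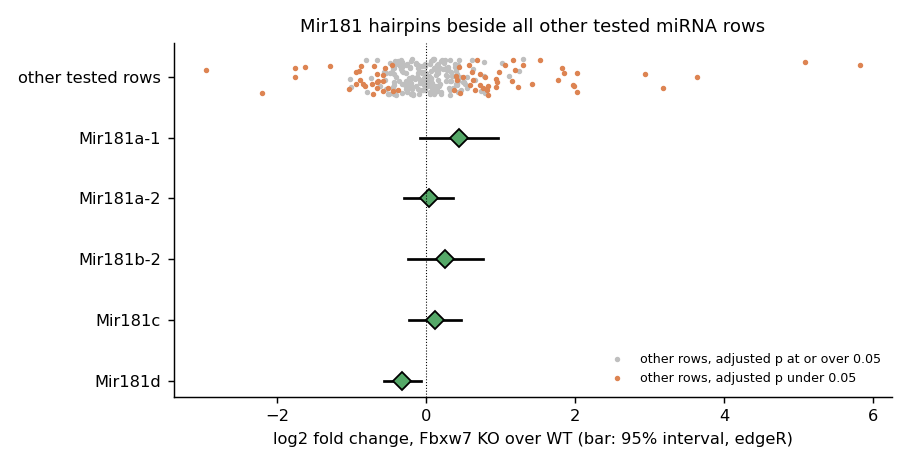
Log2 fold change, Fbxw7 KO over WT, of the 5 hairpins (diamonds, with 95% intervals from edgeR) under the other 278 tested rows (dots, orange where the adjusted p was under 0.05). The interval of Mir181d, −0.57 to −0.06, is the only one of the 5 that leaves out 0.

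Summed by locus in TMM-scaled CPM, the signal was lower in Fbxw7 KO on chromosome 8 and overlapped on the other chromosomes. Of the chromosome 8 pair only Mir181d was lower. The chromosome 8 pair held 625.2, 689.2 and 683.4 CPM in Fbxw7 KO libraries, against 792.9, 770.9 and 767.1 CPM in WT libraries. With plain library totals in place of TMM-scaled ones the chromosome 8 ranges overlapped slightly. They were 631.2 to 710.8 CPM in Fbxw7 KO and 709.9 to 795.9 CPM in WT. The chromosome 2 pair held 112.2 to 117.3 CPM in Fbxw7 KO and 104.7 to 118.3 CPM in WT. All 5 hairpins together held 916, 1014 and 1107 CPM in Fbxw7 KO libraries, against 1067, 1077 and 1029 CPM in WT libraries, and the genotypes overlapped. Within the family Mir181d held 54.5% ± 3.14 of the summed FPKM in Fbxw7 KO and 63.6% ± 0.674 in WT (SD, n = 3 each). The share of Mir181a-1 was 20.2% ± 4.56 in Fbxw7 KO and 14.1% ± 1.92 in WT, with 16.8%, 18.5% and 25.4% in Fbxw7 KO replicates 1 to 3 against 14.0%, 16.1% and 12.3% in WT replicates 1 to 3. These sums and shares are descriptions and were not tested, and the shares depend on the division by hairpin length.

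The loci were set against each other through the ratios of Mir181a-1 to Mir181a-2, Mir181a-1 to Mir181c and Mir181a-2 to Mir181c, and these overlapped between genotypes. The log2 ratio of Mir181a-1 to Mir181a-2 averaged 1.09 ± 0.480 in Fbxw7 KO and 0.72 ± 0.305 in WT (SD, n = 3 each), a difference of 0.37 (exact permutation p = 0.4). Fbxw7 KO replicate 3 had the highest value, 1.62, and the difference without it was 0.11. For Mir181a-1 to Mir181c the means were 0.51 ± 0.345 in Fbxw7 KO and 0.22 ± 0.286 in WT, a difference of 0.29 (exact permutation p = 0.4), or 0.09 without Fbxw7 KO replicate 3. Mir181a-2 to Mir181c gave −0.58 ± 0.191 in Fbxw7 KO and −0.49 ± 0.186 in WT, a difference of −0.08 (exact permutation p = 1), or −0.016 without Fbxw7 KO replicate 3. Within the chromosome 2 locus, Mir181a-2 to Mir181b-2 gave 3.47 ± 0.236 in Fbxw7 KO and 3.69 ± 0.268 in WT, a difference of −0.22 (exact permutation p = 0.5), or −0.097 without Fbxw7 KO replicate 3. Adjusted over the 5 ratios these p-values were 0.625 to 1, and all 4 ratios overlapped between genotypes. The ratio of Mir181c to Mir181d was the only one of the 5 without overlap. The chromosome 8 locus enters these ratios between loci through Mir181c, and 2 ratios to Mir181d were added after their values were seen, so they carry no test. The log2 ratio of Mir181a-1 to Mir181d was −1.49, −1.31 and −0.73 in Fbxw7 KO libraries, against −1.91, −1.69 and −2.11 in WT libraries. That of Mir181a-2 to Mir181d was −2.17, −2.27 and −2.35 in Fbxw7 KO libraries, against −2.73, −2.65 and −2.49 in WT libraries. Both were higher in all 3 Fbxw7 KO libraries than in all 3 WT libraries. The differences of the means were 0.73 and 0.36, and 0.51 and 0.40 without Fbxw7 KO replicate 3. Every ratio without overlap has Mir181d as its second hairpin, so these ratios are not separate from the lower Mir181d in Fbxw7 KO. Single rows without overlap made up 43.8% of all tested rows, and the share among ratios of other rows was not taken.

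**Figure D4:**
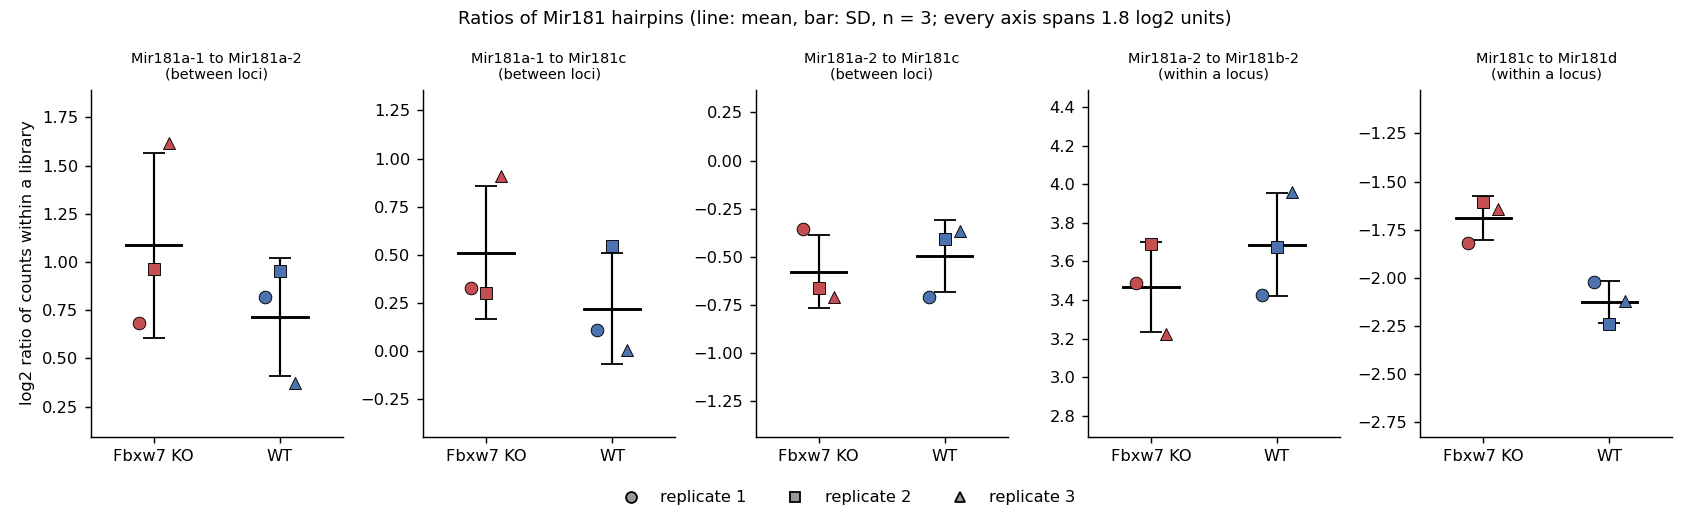
Log2 ratio of the counts of 2 Mir181 hairpins within each library (y axis, the same span in every panel), Fbxw7 KO left and WT right; lines are means and bars SD (n = 3). The Mir181c to Mir181d ratio lies between −1.82 and −1.61 in Fbxw7 KO and between −2.24 and −2.02 in WT, and the other 4 ratios overlap.

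The only other miRNA rows within 50000 bases of a member were on the far side of the chromosome 8 pair. There Mir23a and Mir27a lie on the opposite strand, 29557 and 29711 bases from Mir181c. Mir23a rose to 3404 ± 271 CPM in Fbxw7 KO, against 2476 ± 79.97 CPM in WT (a log2 fold change of 0.46 with SE 0.122 and edgeR adjusted p = 0.0251), and its call ended without Fbxw7 KO replicate 2, WT replicate 1 or WT replicate 2, and with TMM factors from rows outside chromosome 12 (0.34, adjusted p = 0.0671). Mir27a did not pass, at −0.11 on the log2 scale (SE 0.140, edgeR adjusted p = 0.6003). Mir24-2 and Mir3074-2 of the same cluster are listed at 0.

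Profiles most like those of the leading hairpin of each locus were sought among the 278 other tested rows, by the mean absolute difference of log2 CPM, each centred over the 6 libraries. For Mir181d they were Mirlet7e (0.05, against a median of 0.30 over all candidates) and Mirlet7f-2 (0.06), both of the let-7 family. Their log2 fold changes were −0.21 (edgeR adjusted p = 0.237) and −0.20 (adjusted p = 0.296). For Mir181a-1 they were Mir26a-2 (0.10, against a median of 0.37) and Mir16-1 (0.12), with log2 fold changes of 0.53 (edgeR adjusted p = 0.0850) and 0.44 (adjusted p = 0.189). For Mir181a-2 they were Mir3068 (0.06, against a median of 0.25) and Mir143 (0.07), a mesenchymal miRNA. Mirlet7f-2, Mir26a-2 and Mir16-1 each share a 5p sequence with a paralog, so reads could be left out of these rows too.

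Lists of related miRNAs were counted beside the family, against 15.2% of all tested rows higher and 10.2% lower, with a median log2 fold change of 0.05 over all of them. miR-181 is known as induced by TGF-beta. The list of others that respond to it was not split by direction of response, and a TGF-beta response was not tested. Of 11 other tested miRNAs reported to respond to TGF-beta, 4 rose and 0 fell, with a median log2 fold change of 0.30. They were Mir217 (5.82), Mir216a (5.09), Mir29a (0.62), a repressor of collagen genes, and Mir23a (0.46). The first 2 folds rest on WT values near 0 and on widely spread Fbxw7 KO values. Mir217 had 54.1 ± 32.4 CPM in Fbxw7 KO and 0.924 ± 0.230 CPM in WT (SD, n = 3 each). Mir216a had 11.7 ± 7.74 CPM in Fbxw7 KO and 0.300 ± 0.0887 CPM in WT. In human cells miR-181a is also known as raised in senescence. The senescence-linked list was likewise not split by direction. Of 13 other tested senescence-linked miRNAs 5 rose and 0 fell (median 0.29), among them Mir217, Mir29a and the p53 targets Mir34b (0.94) and Mir34c (0.82). Of 10 tested miRNAs with roles in lymphocyte development 3 rose, namely Mir29a, Mir34a (0.49) and Mir15a (0.72), and 1 fell, Mir182 (−1.76), with a median of 0.29. Lists share members, and their rows were chosen with earlier results of these data known. Calls ended without Fbxw7 KO replicate 2 for Mir29a, Mir34a and Mir182, without WT replicate 1 for Mir34b, Mir34c, Mir182 and Mir15a, and without WT replicate 2 for Mir34a, Mir34b, Mir34c and Mir15a. Those of Mir34a and Mir15a also ended without Fbxw7 KO replicate 1 or WT replicate 3, and that of Mir15a without Fbxw7 KO replicate 3. Both also ended with TMM factors from rows outside chromosome 12 (adjusted p = 0.0671 each). The call of Mir182 also ended with no filter on low counts (edgeR adjusted p = 0.163).

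Markers of other cell types, including those in which miR-181 is better known, held small shares of the counts. The measured rows of the family were themselves a small share, 0.0924% to 0.115% in Fbxw7 KO and 0.0992% to 0.107% in WT. Blood and T cell miRNAs held 0.00869% to 0.0101% of counts in Fbxw7 KO and 0.00683% to 0.00847% in WT, with Mir142, Mir155 and Mir486 listed at 0 and 0 of 1 tested member called. Neuronal miRNAs held 0.0156% to 0.0202% in Fbxw7 KO and 0.0136% to 0.0188% in WT, with 0 of 3 called. Both endothelial rows were listed at 0. Muscle miRNAs held 0.0218% to 0.0409% in Fbxw7 KO and 0.0141% to 0.0230% in WT, with 0 of 2 tested members called, and epithelial miRNAs 0.00168% to 0.00618% in Fbxw7 KO and 0.00211% to 0.00262% in WT, with 0 of 1 called. In the fibroblast and mesenchymal list 3 of 12 tested members rose, Mir31 (1.77), Mir34c and Mir199b (0.65), and 1 fell, Mir10a (−0.89), with a median of 0.32, against 15.2% of all tested rows higher, 10.2% lower and a median of 0.05. The call of Mir199b ended without Fbxw7 KO replicate 2 or WT replicate 2. Rows with a copy elsewhere can stand at 0 in this count, and other reasons are possible. Mir22 of the fibroblast and mesenchymal list was also listed at 0. Why any of the rows listed at 0 stood there was not tested. A 0 is thus no measure of a cell type, and the part of other cells in the family's values was not tested.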

How the data were processed

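The authors deposited unnormalised whole-number counts for each miRNA gene name, made with featureCounts 1.6.4 with strand ignored, per the file headers. Per the submitters' processing notes the build was mm10, and TopHat2 2.1.1, SAMtools 1.5, Cufflinks 2.2.1 and deepTools were used. Libraries followed the Illumina TruSeq small RNA protocol, per the labels' protocols. How reads were trimmed and aligned is not given in the sources used here. The deposited FPKM of all 1155 rows equal the counts divided by length and by TMM-scaled totals, within a relative difference of 1e-06.

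Testing used edgeR 4.0.16 under R 4.3.3 (robust glmQLFit, glmQLFTest, TMM over tested rows, 2-sided, genotype as the only term). filterByExpr (minimum count 10, minimum total 15) kept 283 rows, all 5 measured members among them. SE values come from the F statistic. Ratios had 0.5 added to each count and exact permutation tests in SciPy 1.17.1. Of 7 ratios planned, 5 could be made, and 2 more were added after seeing the data. In counts simulated for this comparison (282 rows tested), 46.4% of 1.5-fold, 61.3% of 2-fold and 96.4% of 4-fold changes were recovered, with 4 false calls. Replicates of a genotype differed by more than counting noise.

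The members and lists were chosen with earlier results of these data known. Genes named are all members, the 2 most alike rows per locus, and up to 4 called members of each list by lowest p. The rule's most abundant list members that were not called are given by counts only. Mir27a, Mir24-2 and Mir3074-2 were added as neighbours after their values were seen. Alternatives were other scalings, DESeq2 1.42.0, no filter, limma 3.58.1 on log2 FPKM with 1 or 0.1 added, a replicate block, and leaving out each library.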

Additional observations from a re-analysis of the deposited data

How the results depend on the processing

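The direction of Mir181a-1, Mir181b-2, Mir181c and Mir181d held in all 16 alternatives each. In edgeR Mir181d passed the threshold with DESeq2 size factors (log2 fold change −0.35) and with TMM factors from rows outside chromosome 12 (−0.44). It also passed in the DESeq2 test (−0.35 by DESeq2), and the other 13 alternatives left it unpassed. Mir181a-2 changed sign with TMM factors from rows outside chromosome 12 (−0.083), as did Mir3068 (−0.0057), and Mir143 did so with upper quartile factors (0.011). Leaving out each library gave −0.011 to 0.088 for Mir181a-2, −0.083 to 0.037 for Mir143 and −0.20 to 0.0088 for Mir27a. The number of miRNAs called was 72, 34 to 78 over the leave-outs (34 without Fbxw7 KO replicate 2, 42 without WT replicate 1, 35 without WT replicate 2), and 6 with limma on log2(FPKM + 1) without a filter. With plain library totals Mir181d in WT averaged 621.5 CPM. Causes were not tested. Same-numbered libraries did not deviate together in all pairs (correlations −0.0566, 0.136 and 0.157), so the numbers were not taken as pairs, and not every library correlated best with its own number. The replicate block gave 76 calls, 0.41 for Mir181a-1 and −0.32 for Mir181d (adjusted p = 0.107), and a paired sign-flip test of the Mir181c to Mir181d ratio difference of 0.44 gave an exact p of 0.25, the smallest possible. It also ended the call of Mir15a (adjusted p = 0.0522). Over the leave-outs the added differences lay between 0.51 and 0.88 for Mir181a-1 to Mir181d and between 0.30 and 0.42 for Mir181a-2 to Mir181d. Mir181b-2 had 24 to 44 counts a library, the lowest depth of the 5.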
